A study of Mus musculus with 27 samples.

Results

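In mouse embryonic stem (ES) cells that carry a control short hairpin RNA (shCtl), RNA polymerase II (Pol II) was mapped by chromatin immunoprecipitation sequencing (ChIP-seq) in 3 forms, with 2 peak lists for each. The forms were Pol II phosphorylated on serine 2 of its tail (Ser2P), Pol II phosphorylated on serine 5 (Ser5P) and hypophosphorylated Pol II (hypoP, antibody 8WG16). These 6 lists, chosen by form and by the shCtl label, are 6 of the 27 samples of a series on the nucleolar protein WDR43 and 6 of its 17 peak lists. The mean of 2 shCtl polyadenylated RNA libraries served as the RNA level of each locus. All cells grew in serum medium with leukemia inhibitory factor. The labels give the Ser5P antibody as from Cell Signaling Technology and 8WG16 as from Covance, and give no maker for the Ser2P antibody. The Ser5P, hypoP and RNA libraries are labelled wildtype with shCtl knockdown. For the Ser2P libraries shCtl stands in the title, and neither treatment nor genotype has a field of its own. Each form had its own antibody and libraries, so form and antibody cannot be told apart. The labels do not say whether ChIP numbers 1 and 2 are separate cultures, so the spread between the lists may be technical. Read depth is unknown for all 8 libraries.

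Pol II carries a long repetitive C-terminal tail on its largest subunit. As background, the tail is unphosphorylated when Pol II assembles at a promoter, serine 5 is phosphorylated by the kinase of the initiation factor TFIIH around the start of transcription, and serine 2 is phosphorylated later by P-TEFb and related kinases as Pol II moves through the gene. Ser5P is known for its place near gene starts, and Ser2P for its rise toward and beyond the polyadenylation site, where it serves to recruit factors that cut and end the transcript.

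Markers of ES cells were abundant in the RNA. The unit is inferred to be FPKM (fragments relative to transcript length and library size). All 10 ES cell markers reached at least 1 FPKM, at 51.95 to 2301.65 FPKM, and their sums were 5077.9 and 5184.2 FPKM in the 2 libraries. Of 8 markers of fibroblasts, which are often used as feeder cells, 3 reached 1 FPKM, and the sums were 30 and 41.5 FPKM. The 3 were Col1a1 (12.3 and 18.4 FPKM), Col1a2 (12.9 and 16.1 FPKM) and Thy1 (3.6 and 5.2 FPKM), while Lum and Dcn were listed at 0. Of 6 markers of primitive endoderm, 3 reached 1 FPKM, the highest at 1.1 FPKM, with sums of 3.8 and 4 FPKM.

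Promoters of 6 loci are shown because each stands for a combination of forms described below. Rpl12 and the histone H2A gene Hist1h2ao held all 3 forms, Ptma held Ser5P and hypoP, Sox2 held Ser5P alone, and Gapdh and the histone H2A gene Hist1h2ad held hypoP alone. Each sequence runs 5′ to 3′ on the strand of the gene, from 250 bases before the start to 50 after it, from RefSeq on GRCm38.p6, a later build than the mm9 coordinates of the peaks. Capitals mark 3 motifs searched on both strands: TATAAA, the core of the TATA box, CCAAT, the core of the CCAAT box, and GGGCGG, the core of the GC box. They lie at chr2:32961462-32961761 (+) for Rpl12, chr1:86526307-86526606 (+) for Ptma, chr3:34649745-34650044 (+) for Sox2, chr6:125165724-125166023 (-) for Gapdh, chr13:21810117-21810416 (+) for Hist1h2ao and chr13:23574131-23574430 (+) for Hist1h2ad.
Rpl12: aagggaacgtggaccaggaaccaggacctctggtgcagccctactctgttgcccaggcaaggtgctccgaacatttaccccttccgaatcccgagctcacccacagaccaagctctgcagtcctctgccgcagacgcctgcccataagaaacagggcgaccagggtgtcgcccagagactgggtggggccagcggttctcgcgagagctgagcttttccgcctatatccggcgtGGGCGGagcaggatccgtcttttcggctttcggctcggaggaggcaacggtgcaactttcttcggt
Ptma: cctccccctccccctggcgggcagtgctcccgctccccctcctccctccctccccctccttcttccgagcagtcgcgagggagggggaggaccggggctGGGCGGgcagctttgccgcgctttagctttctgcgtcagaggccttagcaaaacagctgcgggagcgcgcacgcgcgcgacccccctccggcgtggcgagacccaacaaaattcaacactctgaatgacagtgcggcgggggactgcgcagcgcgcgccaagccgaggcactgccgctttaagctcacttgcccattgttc
Sox2: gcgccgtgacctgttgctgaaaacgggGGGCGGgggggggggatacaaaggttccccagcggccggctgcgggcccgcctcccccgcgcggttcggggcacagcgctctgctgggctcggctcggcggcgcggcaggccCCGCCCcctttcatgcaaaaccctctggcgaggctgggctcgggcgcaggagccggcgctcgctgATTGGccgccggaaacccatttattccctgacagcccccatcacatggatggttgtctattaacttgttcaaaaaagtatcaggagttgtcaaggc
Gapdh: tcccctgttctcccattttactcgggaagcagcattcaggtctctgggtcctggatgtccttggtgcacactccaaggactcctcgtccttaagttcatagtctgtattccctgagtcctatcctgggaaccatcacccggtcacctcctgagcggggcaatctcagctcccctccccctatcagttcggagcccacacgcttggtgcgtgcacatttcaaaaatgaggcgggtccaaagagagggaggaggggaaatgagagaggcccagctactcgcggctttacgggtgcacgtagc
Hist1h2ao: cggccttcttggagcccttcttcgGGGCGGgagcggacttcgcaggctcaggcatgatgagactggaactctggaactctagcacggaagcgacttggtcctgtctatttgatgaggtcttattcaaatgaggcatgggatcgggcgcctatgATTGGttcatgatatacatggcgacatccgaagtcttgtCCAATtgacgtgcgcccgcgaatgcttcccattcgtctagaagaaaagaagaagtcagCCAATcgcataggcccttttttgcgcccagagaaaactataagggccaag
Hist1h2ad: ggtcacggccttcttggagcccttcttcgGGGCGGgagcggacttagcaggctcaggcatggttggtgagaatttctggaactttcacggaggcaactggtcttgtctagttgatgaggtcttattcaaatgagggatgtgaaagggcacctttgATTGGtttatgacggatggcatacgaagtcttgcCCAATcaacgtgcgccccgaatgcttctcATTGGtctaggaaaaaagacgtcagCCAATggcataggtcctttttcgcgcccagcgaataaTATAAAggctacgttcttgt

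HypoP was found at many more places than either phosphorylated form, and Ser2P peaks were the widest. Ser2P had 3878 and 4319 peaks in its 2 lists, Ser5P had 1879 and 2520, and hypoP had 19542 and 19561. Ser2P peaks covered 8.96 and 10.6 Mb of the genome, Ser5P peaks 1.45 and 1.96 Mb, and hypoP peaks 32.8 and 35.2 Mb. No list of a form overlapped the range of another form in any of these measures. Ser2P averaged 4098.5 ± 312 peaks, Ser5P 2199.5 ± 453 and hypoP 19551.5 ± 13.4 (SD, n = 2 each). Ser2P thus had 0.209 times and Ser5P 0.111 times the peaks of hypoP, and Ser2P had 1.88 times those of Ser5P.

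Peak widths separated the forms in another order. The median Ser2P peak was 1918.5 and 2018 bp wide, the median Ser5P peak 651 and 674 bp, and the median hypoP peak 1445 and 1544 bp. The median width of Ser2P was 1.32 times that of hypoP and 2.97 times that of Ser5P, and that of Ser5P was 0.443 times that of hypoP. Every difference in number and width was larger than the spread between lists, with an exact permutation p = 0.333 (two-sided), the smallest that 2 lists against 2 can give. The widest peak of any list was 9082 bp.

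**Figure D1:**
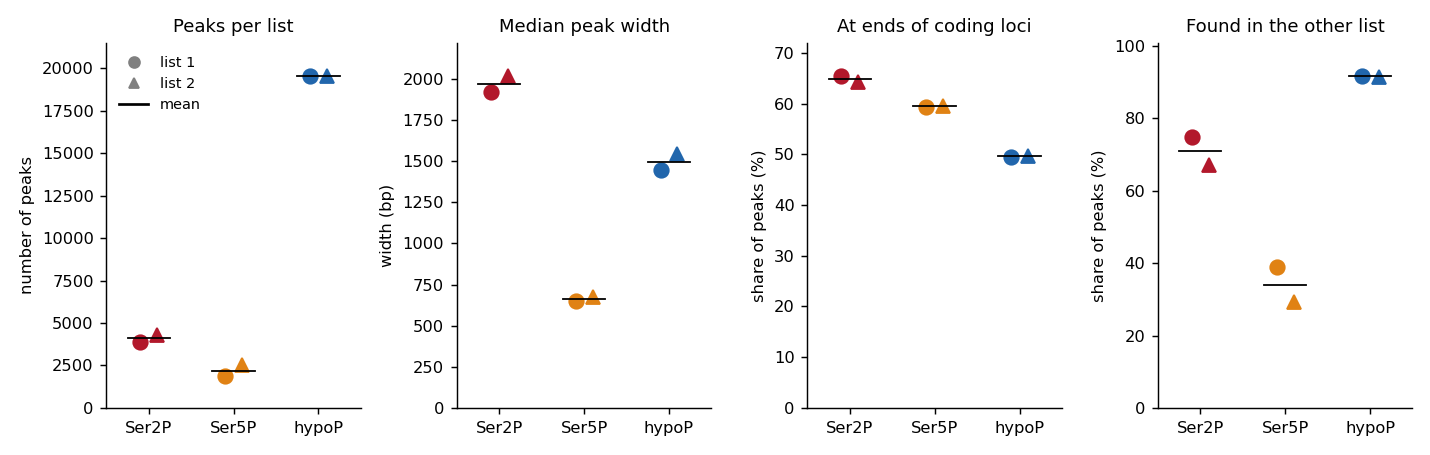
Number of peaks, median peak width in bp, share of peaks (%) within 1 kb of an end of a protein-coding locus, and share of peaks (%) overlapped in the other list of the same form; circles are list 1, triangles list 2 and black lines their mean. Ser2P has the widest peaks, Ser5P the least overlap between its lists, and hypoP the most peaks, at 19542 and 19561.

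The 2 lists of a form shared few Ser5P peaks and most hypoP peaks. Of Ser2P peaks, 74.8% of list 1 and 67.0% of list 2 overlapped a peak of the other list by at least 1 bp, against 38.9% and 29.1% of Ser5P peaks and 91.7% and 91.5% of hypoP peaks. The unshared peaks were mostly those with a low deposited score, a value the authors gave to every peak, with a minimum of 50. Among peaks with a score of at least 100, 95.8% and 94.7% of Ser2P, 93.3% and 83.2% of Ser5P and 99.1% and 98.9% of hypoP were shared. Such peaks made up 34.7% and 36.2% of the Ser2P lists, 13.5% and 12.5% of the Ser5P lists and 77.2% and 77.8% of the hypoP lists. List 1 peaks that overlapped a list 2 peak are called consensus peaks below, and there were 2901 for Ser2P, 731 for Ser5P and 17924 for hypoP.

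Phosphorylated Pol II lay at the ends of coding loci more often than hypoP did when all peaks were counted. A peak counted as at an end where at least 1 bp of it lay within 1 kb. Ser2P peaks were the widest and Ser5P peaks the narrowest, and the part of width in the shares below was not tested. Within 1 kb of an end of a protein-coding locus stood 65.5% and 64.3% of Ser2P peaks, 59.4% and 59.6% of Ser5P peaks and 49.6% and 49.6% of hypoP peaks. The difference from hypoP was 15.3 ± 0.577 percentage points for Ser2P and 9.89 ± 0.0929 for Ser5P, and Ser2P exceeded Ser5P by 5.42 ± 0.582 (SE, n = 2 lists each, exact permutation p = 0.333, the smallest possible). Peaks outside all loci made up 19.2% and 19.5% for Ser2P, 21.0% and 20.6% for Ser5P and 28.6% and 28.5% for hypoP. Inside coding loci, away from the ends, stood 8.59% and 9.15% of Ser2P, 10.5% and 11.2% of Ser5P and 13.4% and 13.4% of hypoP peaks.

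That order depended on how deep into each list the peaks were taken. With the 1879 highest-scoring peaks of every list, 71.6% and 71.8% of Ser2P and 59.4% and 60.2% of Ser5P peaks stood at ends of coding loci, against 84.5% and 84.0% of hypoP peaks. Among peaks with a score of at least 100, Ser2P had 71.9% and 72.3% at ends, Ser5P 27.2% and 35.2% and hypoP 56.9% and 56.9%. The Ser2P share was thus below that of hypoP in the first case and above it in the second, while the Ser5P share was below that of hypoP in both. The differences in peaks inside and outside loci turned round where those at ends did.

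The highest-scoring peaks were rarely at ends of coding loci and were largely the same places for Ser2P and Ser5P. Of the 20 consensus peaks with the highest score, 16 of Ser2P overlapped 1 of the 20 of Ser5P, and 5 of Ser2P and 5 of Ser5P overlapped those of hypoP. At an end of a coding locus stood 0 of the 20 for Ser2P, 1 for Ser5P and 1 for hypoP, and a further 4, 5 and 4 lay inside coding loci. Outside all loci lay 12, 9 and 9, some of them on unplaced sequence (chrUn_random), and at noncoding loci 4, 5 and 6. The 5 places shared by all 3 forms included Rn45s, the ribosomal RNA precursor locus, where the Ser2P peak spanned chr17:39979599-39985865, and a region of chromosome 2 whose Ser2P peak spanned chr2:98506308-98507814 (mm9). The 1 end peak of Ser5P among them was at Lars2, the mitochondrial leucyl-tRNA synthetase gene, at chr9:123370625-123371492 with a score of 2047.69. More than 1 of these peaks stood at a score of 3100, so their order at the top is not resolved. Whether the signal at these places comes from Pol II was not tested.

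Ser2P often stood apart from the other forms, whereas most Ser5P peaks coincided with hypoP. Of Ser2P consensus peaks, 8.07% (95% interval 7.10 to 9.12, Clopper-Pearson) overlapped a Ser5P consensus peak and 42.8% (41.0 to 44.6) a hypoP peak. Of Ser5P consensus peaks, 31.6% (28.2 to 35.1) overlapped Ser2P and 85.0% (82.2 to 87.5) hypoP. Of hypoP consensus peaks, 6.90% (6.53 to 7.28) overlapped Ser2P and 3.43% (3.16 to 3.70) Ser5P. These intervals cover counting error only. Neither of the other forms was found at 56.8% of Ser2P, 13.7% of Ser5P and 90.9% of hypoP consensus peaks. The share of Ser5P with hypoP was 41.4% when each list was held to 1879 peaks.

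Ser2P peaks with and without hypoP differed in shape. Those overlapping hypoP had a median width of 1502.5 bp, against 2473 bp for the rest. Those overlapping Ser5P were narrower still, at 1094 bp against 2216 bp for the rest. Of Ser2P peaks at ends of coding loci 38.1% overlapped hypoP and 3.16% overlapped Ser5P, while of Ser2P peaks outside all loci 52.4% overlapped hypoP and 15.7% Ser5P.

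Taking orientation from 1 form placed the others along the gene. Loci of at least 5 kb with Ser5P at 1 end only numbered 319 of 15530, and that end was taken as the near end. Ser2P consensus peaks covered 7.95% of bases in the 1 kb before the near end, 0.353% just before the middle of the body, 15.9% in the first kb past the far end and 18.8% in the next. HypoP consensus peaks covered 77.4% in the 1 kb before the near end and 4.92% in the 1 kb past the far end. Of covered bases, 70.8% of Ser2P list 1 and 69.1% of list 2 lay past the midpoint, against 13.3% and 13.7% for hypoP.

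**Figure D2:**
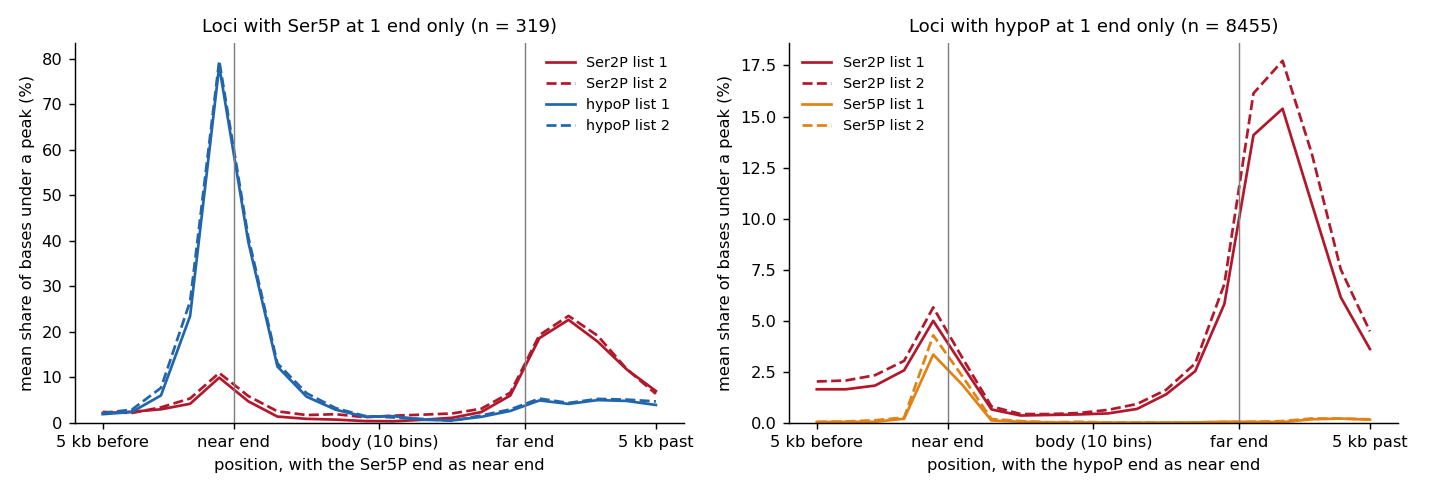
Mean share of bases under a peak (%), along loci of at least 5 kb from 5 kb before the near end through the body in 10 bins to 5 kb past the far end, with solid lines for list 1 and dashed lines for list 2. In loci oriented by Ser5P (left, 319 loci) Ser2P is highest past the far end and hypoP at the near end, and in loci oriented by hypoP (right, 8455 loci) Ser2P is highest past the far end and Ser5P at the near end.

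Ser2P also lay mostly past the far end in a much larger set of loci. With hypoP at 1 end only, 8455 loci could be oriented, and 76.3% and 76.3% of the covered bases of Ser2P lay past the midpoint, against 10.7% and 9.88% of those of Ser5P. Ser2P coverage there was highest from 1 to 2 kb past the far end, at 12.4% for consensus peaks. RefSeq gave a strand for 6870 of these loci, and the end with hypoP was the transcription start in 6665 of them (97.0%). Among loci with no other locus within 5 kb, 87.3% of Ser2P covered bases lay past the midpoint in 2094 loci oriented by hypoP and 96.3% in 76 loci oriented by Ser5P. Of Ser5P consensus peaks at ends of coding loci, 88.6% overlapped a hypoP consensus peak. The near-end place of hypoP or Ser5P in loci oriented by the other therefore follows in part from how the loci were chosen.

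The Ser5P orientation did not carry over to high scores. At a score of at least 100, only 22 loci could be oriented by Ser5P, and 15.8% of Ser2P and 29.5% of hypoP covered bases lay past the midpoint in them. In the 7792 loci oriented by hypoP at that score, 69.3% of Ser2P covered bases still lay past the midpoint. The near-end place of Ser5P was weaker there. Of Ser5P covered bases 41.1% lay past the midpoint in those loci, against 12.8% for all consensus peaks in the 8455 loci.

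By RefSeq strand, Ser2P marked the transcription end and hypoP the start. A strand was found for 80.8% of the Ser2P-holding loci of at least 5 kb and for 80.8% of the hypoP-holding ones. For Ser5P it was 79.4%, under the 80% needed, so this check is void for Ser5P. Of 1857 Ser2P loci, 65.4% had a peak within 1 kb of the transcription end only, 20.3% of the start only, 6.52% of both and 7.75% in the body only. Of 7896 hypoP loci, 2.60% had a peak at the end only, 84.4% at the start only, 4.80% at both and 8.19% in the body only.

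Most loci with Ser2P at the transcription end had hypoP at the start. Of 1215 loci with Ser2P at that end only, 34 (2.80%) held Ser5P at the start, 1065 (87.7%) held hypoP at the start and 205 (16.9%) held hypoP at the end. Their median RNA was 21.3 FPKM, against 7.3 FPKM for the 377 loci with Ser2P at the start only. Of the start-only loci, 75.3% had another coding locus of at least 1 FPKM within 5 kb, against 55.6% of the loci with Ser2P at the end only. The part of such neighbours in the start-only peaks was not tested.

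Ser2P outside all loci was also nearer to genes. The median distance from a consensus peak outside loci to the nearest coding locus was 28.7 kb for Ser2P, 50.8 kb for Ser5P and 60.3 kb for hypoP. Of those within 20 kb of a coding locus of known strand, 136 of 183 Ser2P peaks (74.3%), 27 of 48 Ser5P peaks (56.3%) and 488 of 1112 hypoP peaks (43.9%) lay past the transcription end. These shares come from peaks of the same libraries and are a description.

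Ser2P and Ser5P were each held by a minority of coding loci and hypoP by more than either. A coding locus was counted as holding a form where a consensus peak lay on it or within 1 kb. Ser2P coverage in loci oriented by hypoP was highest from 1 to 2 kb past the far end. The 1 kb limit can therefore leave out Ser2P that belongs to a locus. Of those 8455 loci, 24.7% had a Ser2P consensus peak on them or within 5 kb. Counts, combinations and gene lists below share this limit. Of 20202 coding loci, 2905 (14.4%) held Ser2P, 506 (2.5%) held Ser5P and 11162 (55.3%) held hypoP. Of the 10668 loci with at least 1 FPKM, 2507 (23.5%) held Ser2P, 411 (3.85%) held Ser5P and 9430 (88.4%) held hypoP. In single lists 3619 and 3924 loci held Ser2P, 1437 and 1897 held Ser5P, and 11518 and 11556 held hypoP, so the count for Ser5P depends on requiring both lists.

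Loci holding a form had more RNA than loci without it. The median was 15.05 FPKM at loci with Ser2P and 0.7 FPKM at loci without it, 11.5 FPKM with and 1.25 FPKM without Ser5P, and 8.7 FPKM with and 0 FPKM without hypoP. In RNA library 1 the medians with and without Ser2P were 14.9 and 0.7 FPKM, and in library 2 they were 15.2 and 0.7 FPKM. On the log2(FPKM + 1) scale the median difference was 3.24 for Ser2P, 2.48 for Ser5P and 3.28 for hypoP. Loci are not replicates, so no p-value is given. In these bulk libraries, fewer cells with a form or an RNA and less of it per cell cannot be told apart.

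The 3 forms filled the range of RNA levels differently. Ser2P was at 1.80% of the loci at 0 FPKM, 18.8% of those from 4 to under 16 FPKM, 43.7% from 64 to under 256 and 75.9% (66 of 87 loci) at 1024 FPKM and over, and its share was higher in each range than in the one below. Ser5P was at 0.498%, 3.35%, 6.74% and 27.6% (24 of 87) in the same 4 ranges. HypoP was at 7.20% at 0 FPKM and 71.8% from 1 to under 4 FPKM, and from 4 FPKM on it was between 90.8% and 97.0% in every range. Of loci with at least 64 FPKM, 48.9% held Ser2P, 9.88% held Ser5P and 96.5% held hypoP. The exact 95% interval in the top range was 65.5 to 84.4% for Ser2P, 18.5 to 38.2% for Ser5P and 82.7 to 95.9% for hypoP.

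**Figure D3:**
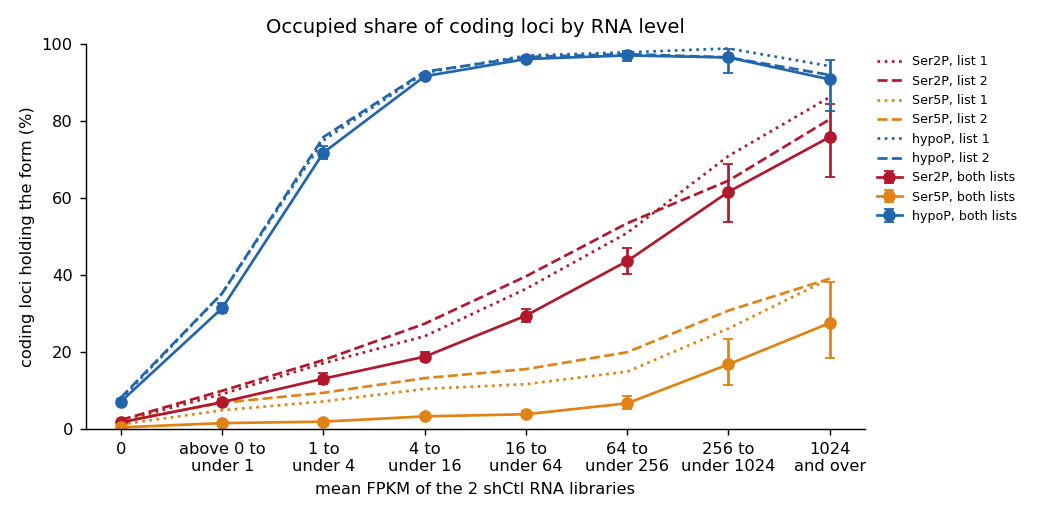
Share of coding loci (%) holding each form, against the mean FPKM of the 2 shCtl RNA libraries in 8 ranges; points are loci with a consensus peak and bars exact 95% intervals, dotted lines are list 1 and dashed lines list 2. Ser2P reaches 75.9% and Ser5P 27.6% in the range from 1024 FPKM, while hypoP is at 90.8% or more from 4 FPKM on.

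Peaks were wider at loci with more RNA. The median widest Ser2P peak at a locus was 1948.5 and 2058 bp at 0 FPKM and 4406 and 4897.5 bp at 1024 FPKM and over. For Ser5P it was 622 and 667.5 bp at 0 FPKM and 1115 and 1180.5 bp at the top. For hypoP it was 1350 and 1401.5 bp at 0 FPKM and 3140.5 and 3367 bp at the top. Loci from 4 to under 16 FPKM still had 2013 and 2218 bp for Ser2P, close to the loci at 0 FPKM.

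Combinations of forms ordered the loci by RNA. The 196 loci with all 3 forms had a median of 23.4 FPKM and the 2376 loci with Ser2P and hypoP 18.1 FPKM. The 267 loci with Ser5P and hypoP had 11.8 FPKM, the 8323 loci with hypoP alone 6.9 FPKM, and the 8670 loci with no form 0 FPKM. Without hypoP the medians were low, at 3.73 FPKM for the 6 loci with Ser2P and Ser5P, 0.45 FPKM for the 327 with Ser2P alone and 0.25 FPKM for the 37 with Ser5P alone. The quartiles overlapped between neighbours in this order, at 4.65 and 93.9 FPKM for all 3 forms, 5.95 and 49.6 FPKM for Ser2P with hypoP, and 1.9 and 18.8 FPKM for hypoP alone.

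**Figure D4:**
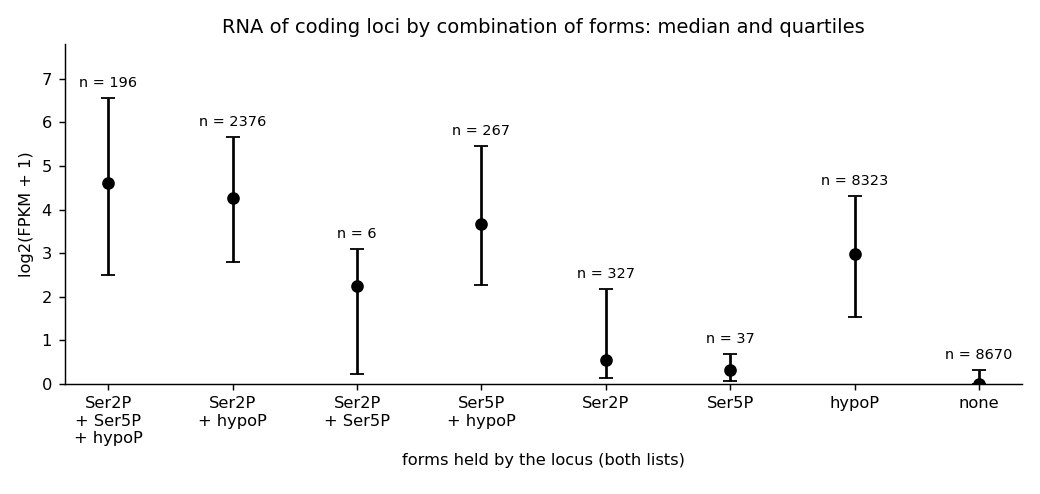
RNA of coding loci by the forms they held in both lists, on the log2(FPKM + 1) scale, with points at the median, bars from the lower to the upper quartile and the number of loci above. Loci with hypoP and a phosphorylated form stand highest, and loci with Ser2P alone or Ser5P alone stand near the loci with no form.

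Ser2P without hypoP was mostly next to an expressed gene. Of the 187 loci that held Ser2P alone and had under 1 FPKM, 174 (93.0%) had another coding locus of at least 1 FPKM within 5 kb. This was so for 473 of 1485 (31.9%) with hypoP alone and 908 of 7583 (12.0%) with no form. Of all 327 loci with Ser2P alone, 140 (42.8%) had at least 1 FPKM and 17 had at least 64 FPKM. Rps28, a small-subunit ribosomal protein gene, is 1 of these 17, with 2293.3 and 2542.6 FPKM. Its Ser2P peaks were 8072 and 8195 bp wide.

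Among genes with all 3 forms, Rpl12 and Ppia had a Ser2P peak that ran over the locus and past its end, and a Ser5P peak at the start. Rpl12, a large-subunit ribosomal protein gene at chr2:32817232-32819565 (mm9), had 3077.2 and 3186.8 FPKM. Counted from its start, Ser2P peaks ran from -135 to 6107 bp and from -180 to 7251 bp, Ser5P peaks from -515 to 1406 bp and from -251 to 619 bp, and hypoP peaks from -956 to 6976 bp and from -890 to 6686 bp. The locus is 2334 bp long, so Ser2P and hypoP both ran past it. Ppia, which encodes the prolyl isomerase cyclophilin A, at chr11:6315873-6319813, is 3941 bp long and had 3182.6 and 3266.7 FPKM. Its Ser2P peaks were 7079 and 7832 bp wide, its Ser5P peaks 1314 and 1318 bp and its hypoP peaks 4254 and 4516 bp.

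Several of the most abundant mRNAs had Ser5P and hypoP without a shared Ser2P peak. Ptma, the gene of prothymosin alpha, at chr1:88423311-88427273, had 6265.4 and 6512.4 FPKM. Its Ser5P peaks were 3088 and 2890 bp wide and its hypoP peaks 6108 and 6489 bp. Neither list had a Ser2P peak on the locus or within 1 kb of it. Eef1a1, which encodes the factor that brings aminoacyl-tRNA to the ribosome, had 5789.6 and 5544.2 FPKM, Ser5P peaks of 2003 and 2417 bp and hypoP peaks of 4181 and 4816 bp. Npm1 (nucleophosmin) and Ncl (nucleolin), both abundant nucleolar proteins, showed the same pair of forms. Npm1 had Ser5P peaks of 1337 and 1092 bp, and Ncl of 1497 and 1038 bp. High RNA therefore occurred with and without a called Ser2P peak on the locus or within 1 kb.

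Other abundant mRNAs held hypoP alone. Gapdh, the glycolytic enzyme glyceraldehyde-3-phosphate dehydrogenase, at chr6:125111870-125115601, had 3011.2 and 3256.5 FPKM. On it or within 1 kb stood only hypoP peaks, of 4989 and 7664 bp. Rps24, a small-subunit ribosomal protein gene, had a Ser2P peak of 7442 bp in list 1 alone and hypoP peaks of 2722 and 2959 bp. Ftl1, the ferritin light chain gene, had a Ser2P peak of 4902 bp in list 2 alone and hypoP peaks of 7531 and 8071 bp.

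Ser2P or hypoP covered some loci over most of their length. Eef2, which encodes the factor that moves the ribosome along the mRNA, had 587.4 and 595.2 FPKM. Its Ser2P peaks ran from 1750 to 6867 bp and from 185 to 6962 bp past the start of a locus of 5879 bp. Pex10, a peroxisome assembly gene with 8.4 and 7.5 FPKM, had Ser2P peaks of 6189 and 6550 bp over a locus of 5377 bp. Eif4a2, a gene of the helicase that unwinds mRNA for translation, had widest hypoP peaks of 5634 and 6339 bp on a locus of 6654 bp, while its widest Ser5P peaks were 1895 and 1784 bp. At Eif4a1, the gene of a related helicase, hypoP covered less of the locus of 5488 bp, with widest peaks of 2891 and 3129 bp. Its widest Ser5P peaks were 1744 and 2168 bp, and it was among the loci with the largest share covered by Ser5P.

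Most ribosomal protein genes held Ser2P and hypoP, and few held Ser5P. Of 47 large-subunit genes, 39 held Ser2P, 9 Ser5P and 44 hypoP, and of 31 small-subunit genes 25 held Ser2P, 5 Ser5P and 27 hypoP. Their median RNA was 1532.8 and 1871.6 FPKM. Of the 87 coding loci at 1024 FPKM and over, 75.9% held Ser2P, 27.6% Ser5P and 90.8% hypoP. Many of those loci are these same genes. The lists are thus set partly against themselves, and nearness of the shares cannot show that the genes are like other loci. In single lists, Ser5P was held by 13 and 14 of the large-subunit and 10 and 10 of the small-subunit genes. Rpl41 held Ser2P peaks of 2150 and 2492 bp and hypoP peaks of 3985 and 4712 bp. Its Ser2P peaks began at 269 and 193 bp past the start and ended at 2419 and 2685 bp, beyond a locus of 1059 bp.

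Genes of nucleolar and transcription machinery held hypoP about as often as other loci with like RNA, while Ser2P and Ser5P varied by list. Of all coding loci, 23.5% held Ser2P, 3.85% Ser5P and 88.4% hypoP at 1 FPKM and over, and 48.9%, 9.88% and 96.5% at 64 FPKM and over. The median RNA of the lists lay between 33.35 and 71.75 FPKM. Loci from 16 to under 64 FPKM held Ser2P, Ser5P and hypoP at 29.5%, 3.90% and 96.1%. Those from 64 to under 256 FPKM held them at 43.7%, 6.74% and 97.0%. Of 35 nucleolar and ribosome assembly genes, with a median of 55.35 FPKM, 14 held Ser2P (40%), 6 Ser5P (17.1%) and 35 hypoP. In single Ser5P lists 14 and 9 of the 35 held it, as did 11.7% and 15.6% of loci from 16 to under 64 FPKM. Of 13 Pol II subunit genes, 6 held Ser2P, 0 Ser5P and 13 hypoP. Of 29 pause and elongation factor genes, 8 held Ser2P, 0 Ser5P and 28 hypoP. Single Ser5P lists gave 1 and 10 of those 29. Polr2e, a subunit shared by the 3 nuclear polymerases, had Ser2P peaks from 3541 to 7062 bp and from 2966 to 7628 bp on a locus of 3707 bp, so they lay over and past its end.

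Metabolic, cytoskeletal and signal-response genes held Ser2P and Ser5P to varying degrees. Of 17 glycolysis genes, 7 held Ser2P, 2 Ser5P and 17 hypoP, near the shares of all loci at 64 FPKM and over, with a median of 139.15 FPKM. Of 20 cytoskeleton and translation genes, 10 held Ser2P, 8 Ser5P and 19 hypoP, with a median of 952.475 FPKM, where loci from 256 to under 1024 FPKM held them at 61.6%, 16.9% and 96.5%. Of 16 host genes of small nucleolar RNAs, 10 held Ser2P (62.5%), 4 Ser5P (25%) and 15 hypoP, with a median of 68.425 FPKM. Of all coding loci at 64 FPKM and over, 48.9% held Ser2P, 9.88% Ser5P and 96.5% hypoP. Of 19 immediate early genes, which respond within minutes to growth signals, 6 held Ser2P, 1 Ser5P and 16 hypoP, with a median of 6.75 FPKM, where loci from 4 to under 16 FPKM held them at 18.8%, 3.35% and 91.6%. Dusp6, which encodes an ERK phosphatase, had Ser2P peaks of 2791 and 2915 bp that began at 4079 and 3928 bp on a locus of 4259 bp.

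**Figure D5:**
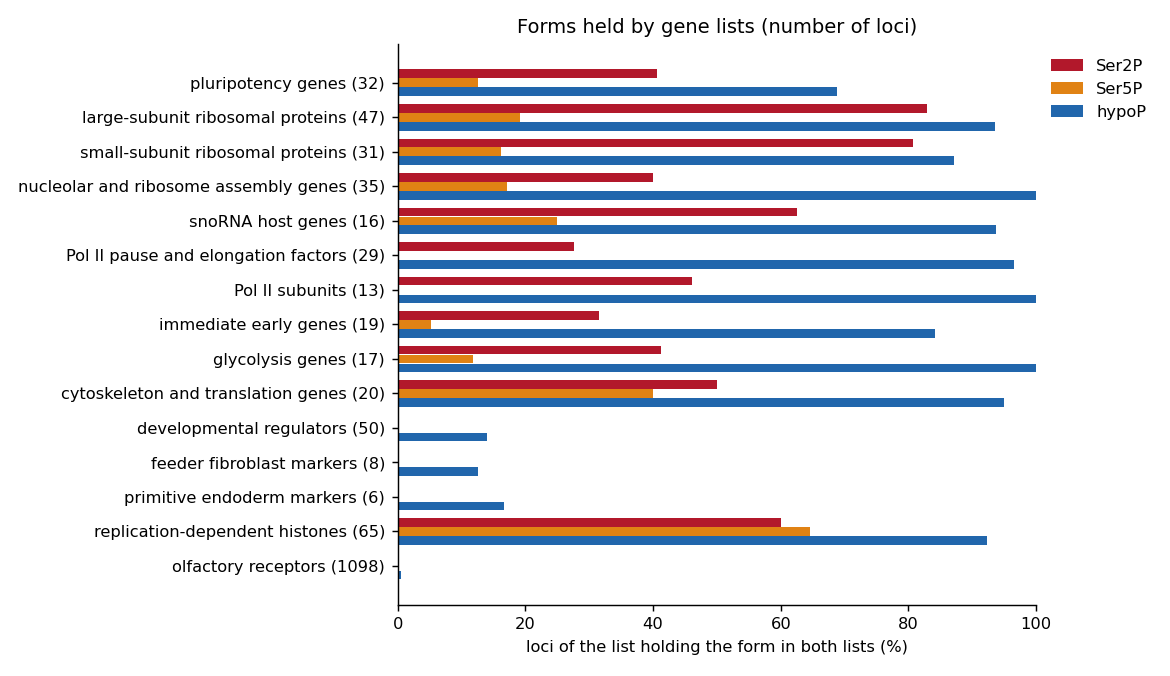
Share of loci (%) in each gene list that held Ser2P, Ser5P and hypoP in both lists of the form, with the number of loci in brackets. Histones stand at 60.0% for Ser2P, 64.6% for Ser5P and 92.3% for hypoP, and few developmental regulators and olfactory receptors hold any form.

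Of the pluripotency genes, 40.6% held Ser2P, 12.5% Ser5P and 68.8% hypoP. Their median RNA was 68.9 FPKM, and of all coding loci at 64 FPKM and over 48.9% held Ser2P, 9.88% Ser5P and 96.5% hypoP, so the Ser2P and Ser5P shares were near those of other loci and the hypoP share was below. All 32 had at least 1 FPKM, and 13 held Ser2P, 4 Ser5P, 22 hypoP and 7 no form. Klf4, a pluripotency transcription factor, held all 3, with Ser2P peaks of 2734 and 2757 bp past its end, Ser5P peaks of 701 and 1677 bp and hypoP peaks of 4972 and 5035 bp at its start. Fgf4, the gene of a secreted growth factor, held Ser2P alone, with peaks of 5068 and 5378 bp. Sox2, a core pluripotency factor at chr3:34548927-34551382 with 213.1 and 226.4 FPKM, held Ser5P peaks of 1603 and 798 bp and no hypoP peak in either list.

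Several core pluripotency genes with high RNA had peaks in 1 list only. Pou5f1, which encodes OCT4, at chr17:35642977-35647722, had 1038.4 and 1056.5 FPKM. A Ser2P peak of 6998 bp and a hypoP peak of 8481 bp stood on it in list 1, and none in list 2. Nanog had a Ser2P peak of 6658 bp in list 1 and no other peak on the locus or within 1 kb. In all, 21 coding loci with at least 64 FPKM held no form in both lists, 5 of them from the pluripotency list, and 13 of the 21 had a peak in at least 1 list. Of peaks of at least 6 kb, 62.4% of Ser2P list 1 and 81.8% of Ser2P list 2 were matched in the other list, and 83.3% of hypoP list 1 and 152 of 160 in hypoP list 2. The part of peak calling in these differences between lists was not tested.

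Replication-dependent histones, whose mRNAs end in a stem loop without a poly(A) tail, often held all 3 forms. Of 65 loci, 39 held Ser2P, 42 Ser5P, 60 hypoP and 31 all 3, where 14.4%, 2.5% and 55.3% of all coding loci held Ser2P, Ser5P and hypoP. Loci in the clusters share peaks, and the calls rested on 27 Ser2P, 29 Ser5P and 32 hypoP consensus peaks. The cluster on chromosome 13 held 52 loci, with 29 holding Ser2P, 35 Ser5P and 47 hypoP. On chromosome 3, all 9 loci held Ser2P, 6 held Ser5P and 9 hypoP, on chromosome 11 the 3 loci held hypoP alone, and on chromosome 6 the 1 locus, Hist4h4, held all 3 forms.

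The RNA of histones was low beside their Ser2P and Ser5P occupancy, but not beside that of hypoP. Their median was 4.65 FPKM and the highest 321.25 FPKM, in polyadenylated RNA, which may capture these mRNAs in part. Of all coding loci from 4 to under 16 FPKM, 18.8% held Ser2P, 3.35% Ser5P and 91.6% hypoP. For the histones these shares were 60.0%, 64.6% and 92.3%. Hist1h2ao had 294.1 and 348.4 FPKM and held all 3 forms, while Hist1h2ad had 157.4 and 197.6 FPKM and held hypoP alone. A Ser5P peak of 897 bp lay within 1 kb of Hist1h2ad in list 2 only. Its hypoP peaks, of 8473 and 8376 bp, also spanned neighbouring histone loci. Overlapping and near-identical histone copies make the RNA of single genes uncertain.

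Histone promoters, such as the pair shown above, shared motifs with and without Ser5P. RefSeq promoters were matched for 57 of 65 histone loci (87.7%). CCAAT stood in 91.7% of the 36 promoters with Ser5P and 71.4% of the 21 without it, against 37.4% of all 32851 promoters of the table. TATAAA stood in 52.8% of those with Ser5P and 71.4% of those without it, against 13.6% of all promoters. GGGCGG stood in 38.9% of those with Ser5P, 33.3% of those without it and 35.7% of all. Both printed histone promoters hold CCAAT on both strands. Matches were counted anywhere in the sequence, without regard to the place a TATA or CCAAT box takes. In Hist1h2ad the TATAAA began at base 31 after the start, and 1 CCAAT of Hist1h2ao began at base 1 after it. No motif is part of another, and a match is not a binding site. Of all coding loci 79.7% were matched to a promoter, under 80%, so a comparison of promoters by combination of forms is void.

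Few developmental regulators and olfactory receptors held Pol II of any form, and most of them had little RNA. Of all coding loci under 1 FPKM, 4.17% held Ser2P, 0.996% Ser5P and 18.2% hypoP, and of those at 0 FPKM 1.80%, 0.498% and 7.20%. Of 50 developmental regulators known to carry Polycomb marks in ES cells, 0 held Ser2P, 0 held Ser5P and 7 (14.0%) held hypoP, near the share of loci under 1 FPKM for Ser5P and hypoP, and 8 of the 50 had at least 1 FPKM. Single Ser5P lists gave 2 and 8 of them. Of 1098 olfactory receptor genes, whose median was 0 FPKM, 0 held Ser2P, 0 held Ser5P and 6 (0.546%) held hypoP. Of the 8 fibroblast markers and the 6 primitive endoderm markers, 1 each held hypoP and none held a phosphorylated form in both lists. Rnu1b2, the only U small nuclear RNA locus in the table and a gene of the splicing RNA U1, held Ser5P peaks of 675 and 583 bp and hypoP peaks of 2365 and 2402 bp, with no Ser2P peak.

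Peaks on the X chromosome were a small share of each list. It carried 2.80 ± 0.236% of Ser2P, 1.42 ± 0.125% of Ser5P and 4.23 ± 0.0333% of hypoP peaks (SD, n = 2 lists each), and 3.42% of the coding loci with at least 1 FPKM.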

How the data were processed

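Per the labels, 2 ChIP-seq libraries of each Pol II form (Ser2P, Ser5P, hypoP) and 2 polyadenylated RNA libraries came from shCtl mouse ES cells. The authors deposited 1 peak list per ChIP library, called per library, with coordinates and a score for each peak. Peak names point to MACS. Reads were aligned with Bowtie2 to mm9, per the submitters' processing notes. The caller's version, control library and threshold were not given in the sources used here. For RNA the authors deposited 1 value per locus with 1 decimal, under the name spike-in RNA-seq. Whether the values were scaled to a spike-in was not checked here. The unit FPKM is inferred from TopHat and Cufflinks, named per the submitters' processing notes, and the 2 libraries are biological replicates per the file headers. Their FPKM totals were 1015232.2 and 1040749.4. Read depth is unknown.

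Groups follow titles. Peaks and loci were joined in Python 3.11.15 with numpy 2.4.6, pandas 2.3.3 and scipy 1.17.1, tested on simulated data. Overlap meant at least 1 bp, and consensus peaks were list 1 peaks found in list 2. A peak belonged to the end of a coding locus within 1 kb, else inside, else to a noncoding locus, else outside. Of 38582 loci, 20202 were protein-coding. The lists of forms were compared by exact permutation tests (two-sided), whose p cannot go below 0.333 with 2 lists against 2. No test was run across loci. Same-numbered lists were also compared as pairs. The table holds no strand, so loci of at least 5 kb were oriented by the only end with Ser5P or hypoP, or by RefSeq strand. Coordinates are 1-based. Antisense and overlapping loci were not separated.

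Named loci are the highest in RNA in each combination of forms, the highest in peak score, those with the largest covered share, and the highest and lowest in RNA of each gene list, with cell type markers. The text gives those with a described peak pattern. Members, lists and rules were chosen with earlier results of these data known. The list of alternatives covered the score, equal peak numbers, overlap, windows, filters, the pseudocount, single lists and the replicate block, and 3 alternatives were added after seeing the data.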

Additional observations from a re-analysis of the deposited data

How the results depend on the processing

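Peak number and width kept their order of forms under every alternative run. With 1879 peaks per list, the differences from hypoP turned round, to -12.6 percentage points for Ser2P and -24.5 for Ser5P at ends of coding loci, 3.09 and 6.79 inside them and 7.61 and 12.8 outside loci. At a score of at least 100 those of Ser5P turned round, to -25.7 at ends, 6.89 inside and 9.66 outside. Between Ser2P and Ser5P, the inside difference became 0.494 with coding loci of at least 1 FPKM and the outside difference 2.26 with a window of 0.5 kb. Leaving out either list number gave differences of 14.7 to 15.9 (Ser2P against hypoP) and 4.76 to 6.08 (Ser2P against Ser5P) at ends, -4.86 to -4.28 (Ser2P against hypoP) and -2.91 to -2.20 (Ser5P against hypoP) inside, and -9.42 to -9.01 (Ser2P against hypoP) and -1.78 to -1.01 (Ser2P against Ser5P) outside. With the replicate block (lists paired by number) every contrast kept its value (log2 -2.26 for the number and 0.40 for the width of Ser2P against hypoP) and had an exact p = 0.5, the smallest 2 pairs can give. The labels do not say that a number marks a pair.

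At a score of at least 100, the share of Ser2P peaks with Ser5P was 10.1% and with hypoP 48.8%, of Ser5P with Ser2P 57.5% and with hypoP 80.1%, and of hypoP with Ser2P 3.67% and with Ser5P 1.04%. With equal peak numbers these 6 shares were 11.1%, 9.57%, 24.1%, 41.4%, 8.46% and 16.7%, and in single lists 9.70 to 9.89%, 41.4 to 41.9%, 17.2 to 19.8%, 77.8 to 80.6%, 8.28 to 9.24% and 7.69 to 9.92%. Requiring an overlap of 50% of the shorter peak gave 7.89% and 40.8% for Ser2P.

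Coding loci holding Ser2P numbered 1176 at a score of at least 100, 1549 with equal numbers and 4618 with either list. For Ser5P they numbered 85 at that score, 2796 with either list and 1437 to 1897 in single lists, and for hypoP 1623 with equal numbers. The log2 RNA difference for Ser2P, Ser5P and hypoP was 1.17, 0.93 and 1.74 with loci of at least 1 FPKM, 4.24, 3.11 and 6.46 with a pseudocount of 0.1, 4.31, 3.78 and 3.36 with loci alone within 1 kb, and 4.29, 3.15 and 3.11 without an expressed coding neighbour within 5 kb, which was added after seeing the data. It was 1.33 for Ser5P and 3.40 for hypoP at a score of at least 100, 3.19 for Ser2P and 3.45 for hypoP with equal numbers, and 3.24 to 3.28, 2.31 to 2.38 and 3.20 to 3.22 in single lists.

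The occupied share at 64 FPKM and over minus that under 1 FPKM was 44.7, 8.88 and 78.3 percentage points for Ser2P, Ser5P and hypoP. It became 25.1, 0.542 and 81.8 at a score of at least 100, 29 for Ser2P and 28.3 for hypoP with equal numbers, and 51.4 to 51.4, 15.6 to 18.9 and 76.4 to 77.5 in single lists. Of Ser2P and hypoP covered bases, 15.8% and 29.5% lay past the midpoint at a score of at least 100 (22 loci), 96.3% and 9.06% with loci alone within 5 kb, 75.5% and 20.5% by RefSeq strand (added later), and 74.3 to 75.3% and 15.3 to 15.7% in single lists. By hypoP orientation it was 75.5% for Ser2P, and with equal numbers 2.41% for hypoP. Listed loci holding Ser2P were 177, or 112 at a score of at least 100, and those holding hypoP 312, or 91 with equal numbers. Those holding Ser5P were 82, or 21 at that score, 173 with either list, 47 without chromosome 13 (added later) and 125 to 131 in single lists. The causes of these changes were not tested, and unknown read depth limits every comparison of peak numbers.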

Other observations

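All 3 forms had several peaks inside 1 gene, Tex14. Tex14, a gene of germ cell bridges with 7.7 and 5.4 FPKM in a locus of 150759 bp, held 5 and 4 Ser2P peaks, 6 and 6 Ser5P peaks and 7 and 7 hypoP peaks, and a hypoP consensus peak in it had a score of 3203.11. Of the 20 hypoP consensus peaks with the highest score, 4 lay inside coding loci, all of them in Tex14.

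Some loci had peaks and next to no RNA. Sp8, a developmental transcription factor gene, had 0.2 and 0 FPKM and held Ser5P peaks of 1730 and 773 bp. Neither list had a Ser2P or hypoP peak on it or within 1 kb. Of the 5223 coding loci listed at 0 FPKM, 94 held Ser2P, 26 held Ser5P and 376 held hypoP.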
